A study of Mus musculus with 4 samples.

Results

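Ion channel genes were followed in bulk RNA sequencing of stromal cells sorted from mouse femurs. The set comprises 132 of the 17230 genes in the count table, chosen by symbol alone: the potassium channel genes (Kcn), the transient receptor potential (TRP) genes of the A, C, M and V families, the voltage-gated calcium channel genes (Cacna and Cacnb), the voltage-gated sodium channel genes (Scn) and the CLC chloride channel and exchanger genes (Clcn). By role, 31 were pore-forming subunits of voltage-gated potassium channels and 12 their auxiliary subunits, 11 belonged to calcium- or sodium-activated potassium channels, 10 to inward rectifiers, 10 to two-pore-domain potassium channels, 18 to TRP channels, 9 were pores and 8 auxiliary subunits of voltage-gated calcium channels, 8 were pores and 4 auxiliary subunits of voltage-gated sodium channels, and 9 were CLC genes. The remaining 2 rows encode no channel subunit: Trpc4ap, a ubiquitin ligase adaptor, and Kcnq1ot1, a long noncoding RNA transcribed antisense to Kcnq1.

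All mice carried GFP at the Cxcl12 locus and a Cre-dependent tdTomato reporter at R26R, and received tamoxifen at embryonic day 12.5. Cells were sorted at postnatal day 21. In the Hes1-derived group (genotype Cxcl12(GFP/+); Hes1(CreER/+); R26R(tdTomato/+)) the tamoxifen-dependent Cre was placed at Hes1, and in the Fgfr3-derived group (Cxcl12(GFP/+); Fgfr3-iCreER; R26R(tdTomato/+)) it was driven from Fgfr3. The cell type labels call both groups CXCL12-abundant reticular (CAR) cells, the GFP-bright stroma of the marrow, and the series title sets a fetal perichondrial against a chondrocyte origin. Each group had 2 libraries, replicates 1 and 3 of Hes1-derived and replicates 2 and 3 of Fgfr3-derived cells. Whether each library pooled animals is not stated, so p-values measure the spread between these libraries only, and the Cre line and the origin cannot be told apart.

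Ion channels are membrane proteins that let selected ions move down their electrochemical gradients. Potassium channels hold the membrane potential negative, voltage-gated sodium and calcium channels open on depolarization, TRP channels are cation channels opened by lipids, temperature, chemical irritants or stretch, and CLC proteins carry chloride across the surface membrane or exchange it for protons in endosomes and lysosomes. In non-excitable cells, potassium channels sustain calcium entry by keeping the membrane potential negative, and in bone, voltage-gated calcium channels and TRP channels have been studied in the calcium and mechanical responses of osteoblasts.

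The libraries held 22745128 and 23625327 counted reads in the Hes1-derived group and 26025607 and 26804832 in the Fgfr3-derived group. Of these reads, in that order, 34796, 35190, 48019 and 43132 fell on the members, Trpc4ap and Kcnq1ot1 included. Cxcl12 was abundant in each library, between 4180 and 9764 CPM (read counts scaled to a common depth with TMM-adjusted library sizes). Markers of other cells differed between the groups. Of 12 pan-leukocyte markers 8 were higher in Hes1-derived libraries and none lower, and their summed level was 6781 and 7920 CPM against 1932 and 4175 CPM. Of 16 B lymphocyte markers 15 were higher, with 2982 and 2951 CPM against 736 and 850.03 CPM. Of 11 tested erythroid markers 10 were higher (8364 and 4774 CPM against 1314 and 1932 CPM), and of 14 cell cycle genes 9 (4361 and 4570.1 CPM against 1940.3 and 2416 CPM). In the other direction, 14 of 19 tested osteoblast markers were lower (6050.4 and 5839 CPM against 30125 and 35677 CPM), as were 7 of 10 mural cell markers (247 and 140.3 CPM against 529.8 and 591 CPM). Of 28 markers of the sorted reticular stroma itself, 4 were lower and 0 higher (27483 and 17670 CPM against 40147 and 28085 CPM). These were 14.3% called, near the 11.8% of all tested genes, and the groups did not overlap in 50% of them, against 61.9% of all tested genes. As a list they still leaned lower in Hes1-derived libraries. Their median log2 fold change (Hes1-derived minus Fgfr3-derived) was −0.57, and 23 of the 28 were negative. Over all 14330 tested genes the median was −0.02, and 7373 were negative. Neutrophil marker sums were 27695 and 32899 CPM in Hes1-derived libraries against 11779 and 24673 CPM, with 1 of 14 markers higher and 1 lower. Osteoclast sums were 1553 and 1869 CPM against 3584 and 3580 CPM (1 of 9 tested markers higher and 1 lower). Endothelial sums were 150 and 157 CPM against 55.7 and 75.4 CPM (1 of 13 higher). No pan-leukocyte, B lymphocyte, erythroid or mural marker was at 0 reads in any library. The part of these other cells in the channel results was not tested, and in bulk samples fewer cells of a type and less RNA per cell cannot be told apart.

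**Figure D1:**
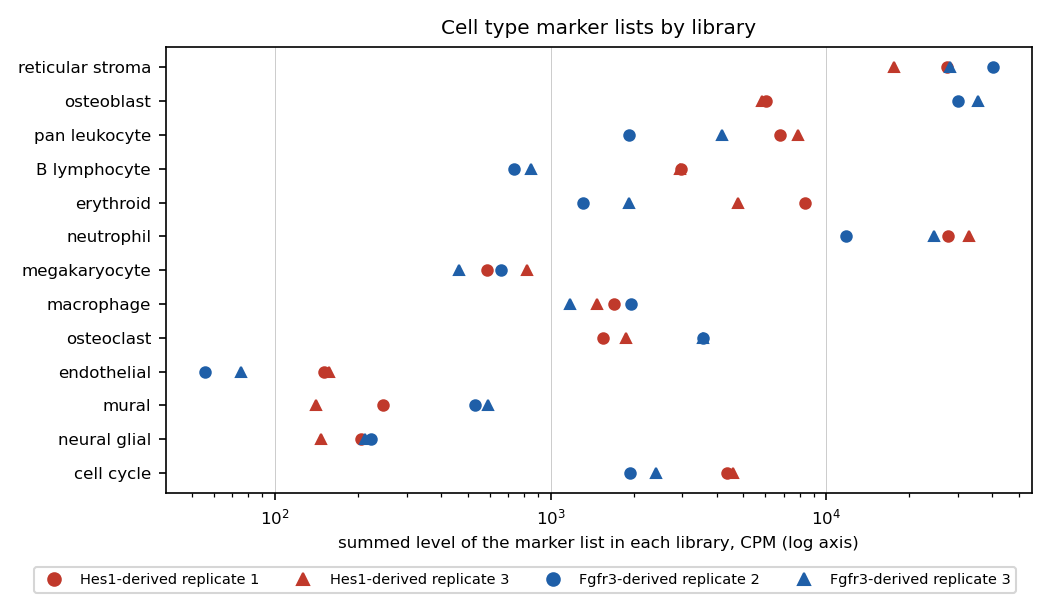
Summed level of each marker list (CPM, log axis) in the 4 libraries, with Hes1-derived libraries in red and Fgfr3-derived libraries in blue; each point is 1 library. Pan-leukocyte, B lymphocyte, erythroid and cell cycle sums are higher in both red libraries, osteoblast and mural sums are higher in both blue ones, and the megakaryocyte and macrophage sums overlap.

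Trpc6, a cation channel gene, was lower in Hes1-derived cells, and the potassium channel genes Kcna3 and Kcnn4 were higher there. The 300 bases around their annotated starts are shown (250 before and 50 after, RefSeq, GRCm38.p6). They are examples from each direction and do not represent the other members that passed. Capitals mark the RUNX core (TGTGGT or its reverse complement ACCACA) and the GC box (GGGCGG or CCGCCC), searched on both strands; these motifs were chosen after the values were seen, and the motifs do not overlap each other. The windows are chr7:24370013-24370312 (plus strand) for Kcnn4, chr3:107035912-107036211 (plus strand) for Kcna3 and chr9:8543892-8544191 (plus strand) for Trpc6.
Kcnn4 promoter: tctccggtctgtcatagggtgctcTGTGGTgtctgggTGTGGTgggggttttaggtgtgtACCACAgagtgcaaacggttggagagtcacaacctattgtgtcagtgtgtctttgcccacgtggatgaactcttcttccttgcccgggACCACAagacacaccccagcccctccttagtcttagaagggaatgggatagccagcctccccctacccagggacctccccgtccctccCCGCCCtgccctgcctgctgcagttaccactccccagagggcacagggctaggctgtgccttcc
Kcna3 promoter: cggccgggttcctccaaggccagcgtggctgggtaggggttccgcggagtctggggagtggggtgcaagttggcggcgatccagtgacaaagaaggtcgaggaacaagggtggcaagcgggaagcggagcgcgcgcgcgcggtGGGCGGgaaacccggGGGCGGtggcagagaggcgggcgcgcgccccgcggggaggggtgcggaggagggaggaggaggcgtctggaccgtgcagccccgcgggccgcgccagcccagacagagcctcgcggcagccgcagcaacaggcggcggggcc
Trpc6 promoter: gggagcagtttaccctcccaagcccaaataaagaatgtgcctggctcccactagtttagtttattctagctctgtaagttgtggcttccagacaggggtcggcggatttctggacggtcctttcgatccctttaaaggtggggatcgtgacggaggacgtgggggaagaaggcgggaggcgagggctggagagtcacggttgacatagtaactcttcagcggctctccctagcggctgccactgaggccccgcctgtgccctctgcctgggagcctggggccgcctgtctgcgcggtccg
The Kcnn4 window held 4 RUNX cores and 1 GC box, the Kcna3 window 2 GC boxes and no RUNX core, and the Trpc6 window neither motif. A RUNX core was present in 16.8% of 32851 promoter windows and in 16.5% of the 139 windows of the 99 channel genes that the table holds, and 4 or more cores were present in 15 of all windows. A GC box was present in 35.7% of all windows and 45.3% of the channel gene windows. In the 18 windows of 10 members that passed the test, a RUNX core was present in 2 (11.1%) and a GC box in 8 (44.4%). Summed over the windows of each lower member, GC boxes numbered 6 for Cacna1c (3 windows), 5 for Cacnb3 (2), 3 for Kcnma1 (1), 1 for Kcnk2 (4) and 0 for Trpc6 (1). For the higher members they numbered 2 for Kcna3 (1 window), 1 each for Kcnn4 (1) and Clcn3 (2), and 0 each for Cacna1e (1) and Kcnq5 (2). Members with more windows have more sequence searched, so no contrast between the directions is read from these sums. Besides Kcnn4, only the lower member Cacna1c held a RUNX core (1). A match describes these letters only and is not evidence of a bound site.

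Most channel genes had few reads. Of the 132 members, 87 passed the low-count filter, and the 45 that did not had between 2 and 95 reads summed over the 4 libraries. Members without a read in at least 1 library numbered 49, and 38 members overlap an exon with an annotated gene on the opposite strand, whose reads cannot be told apart without strand. A mean of at least 10 CPM over the libraries was reached by 22 members, and 36 more lay between 1 and 10 CPM. Per exon length, 29 members reached 1 RPKM (reads per kilobase of exon, scaled to depth as CPM) and 6 reached 10, against 11293 and 5009 of all genes. The 5 members with the highest mean CPM, among them the adaptor gene Trpc4ap, took between 54.2% and 62.8% of the reads of the 132 members in a library.

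Kcne4, which encodes a beta subunit that inhibits some voltage-gated potassium channels, had the highest level of the set per exon length, at 83.9 and 49.5 RPKM in Hes1-derived cells against 164 and 100.6 RPKM in Fgfr3-derived cells. It was followed by the adaptor gene Trpc4ap (35.3 to 37.8 RPKM over the 4 libraries), then Kcnk2 (7.23 to 38.8), Kcnn4 (8.51 to 32.8), Clcn4-2 (14.7 to 21.9) and Trpv2 (5.83 to 16.0). The ranges of Kcnk2, Kcnn4, Clcn4-2 and Trpv2 overlapped, so that the libraries set no firm order among them. The level per length uses all GENCODE M21 exons of a gene, and the annotation that the authors counted on is not given in the sources used here.

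**Figure D2:**
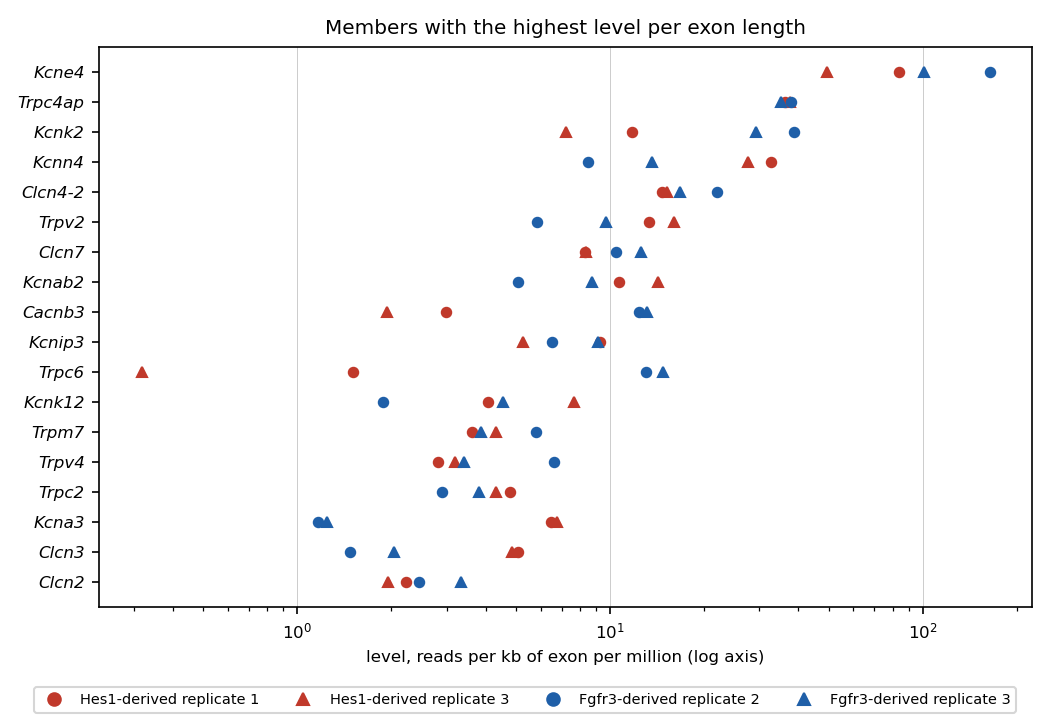
Level per exon length (RPKM, log axis) of 18 of the 20 members with the highest mean, 1 point per library, Hes1-derived in red and Fgfr3-derived in blue. Kcne4 leads at 49.5 to 164, and the Trpc4ap points lie together between 35.3 and 37.8.

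The comparison asked how channel gene expression differs between CAR cells of these 2 origins. In Hes1-derived libraries 6 members were higher (Kcna3, Kcnn4, Kcnq5, Clcn3, Cacna1e and Cacna2d4) and 8 were lower (among them Trpc6, Trpa1, Kcnk2, Cacnb3, Cacna1c, Kcnma1 and Kcnb2) by edgeR's quasi-likelihood test with Benjamini-Hochberg adjustment over all 14330 tested genes and a threshold of 0.05. These 14 were 16.1% of the 87 tested members, against 11.8% of all tested genes; higher calls made up 6.90% of the members against 5.24% of all genes, and lower calls 9.20% against 6.56%. The shares lie close to the background, so no enrichment is read from them. An unadjusted p under 0.05 (edgeR) was reached by 37 of the 87 tested members and by 4307 of all 14330 tested genes. Class counts at that limit, given below, are to be read against this background. Scaling to the reticular stroma list gave 11 higher and 6 lower members, and scaling to eGFP reads gave 5 higher and 2 lower. The groups did not overlap in 25 members that lay higher and 34 that lay lower, together 67.8% of those tested, against 61.9% of all tested genes (29.8% higher and 32.1% lower). The median log2 fold change (Hes1-derived minus Fgfr3-derived) of the tested members was −0.26, against −0.02 over all tested genes. It was −0.26 too with the 3 members that had no read in 1 group set to 3 reads per library there. Its sign depends on the scaling: it was 0.26 when scaled to stroma genes and 0.61 when scaled to eGFP, where the median of all genes was 0.48 and 0.83, and it was 0.0011 with Fgfr3-derived replicate 2 left out.

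**Figure D3:**
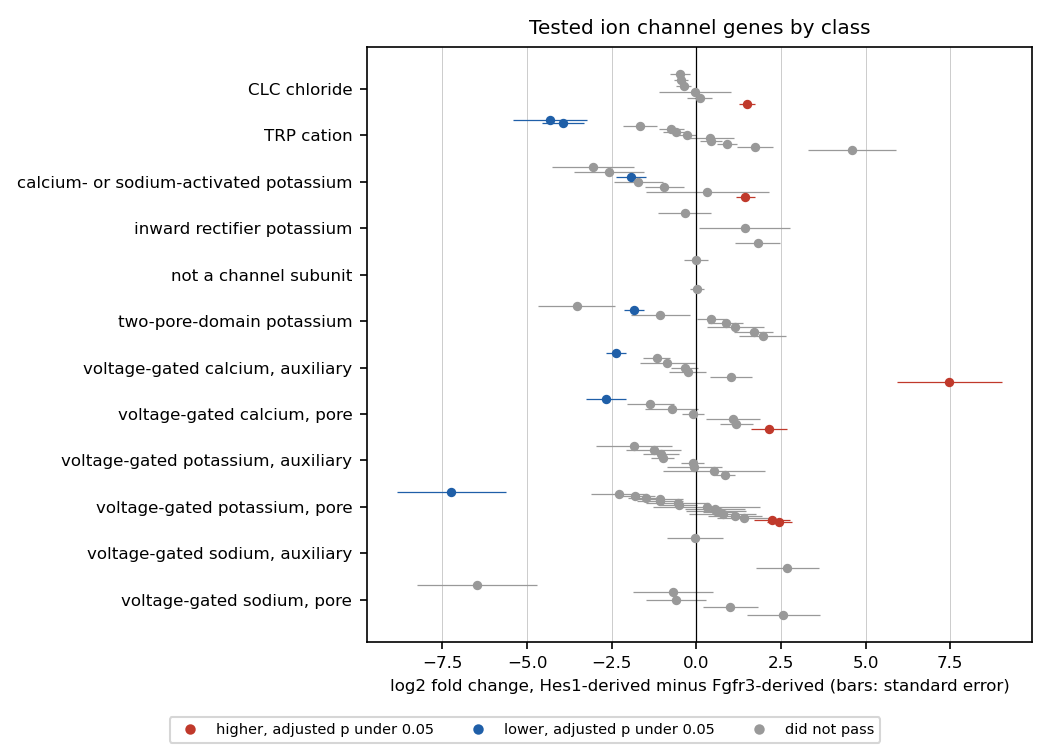
Log2 fold change (Hes1-derived minus Fgfr3-derived, x axis) of 83 of the 87 tested members by channel class, with bars for the standard error; red and blue points passed the test as higher and lower and grey points did not. Trpa1 and Trpc6 lie at −4.33 and −3.94; the farthest points, Cacna2d4, Kcnb2 and Scn1a, had no read in 1 group, and their fitted size depends on the prior count.

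Among the TRP cation channels, 3 of 12 tested members were lower in Hes1-derived cells and none was higher by edgeR (3 were at an unadjusted p under 0.05; DESeq2 and limma-voom each called 5 TRP genes in all). Trpc6 encodes a channel opened by diacylglycerol downstream of phospholipase C, and Trpa1 encodes an irritant-sensing channel best known from sensory neurons. Trpc6 (chr9:8544142-8680741, plus strand, GRCm38) stood at 7.61 and 1.61 CPM in Hes1-derived cells, against 66.2 and 74.8 CPM in Fgfr3-derived cells. Both Fgfr3-derived libraries were far above both Hes1-derived ones, which differed among themselves. The group means were 4.61 ± 4.24 and 70.5 ± 6.09 CPM (SD, n = 2), a log2 fold change of −3.94 ± 0.63 (SE, edgeR adjusted p = 0.019). It was −5.45 with Hes1-derived replicate 1 left out and −3.21 with replicate 3 of that group left out, and it passed in all 13 alternative fits at an adjusted p under 0.05. In a fit that leaves out a library, the lone library of its group is assumed to vary like the other group.

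Trpa1 (chr1:14872648-14918862, minus strand) had 14 and 0 reads in the Hes1-derived and 155 and 162 reads in the Fgfr3-derived libraries, or 0.62 and 0 CPM against 6.11 and 6.19 CPM. It was low or undetected in one group and present at a like level in both libraries of the other (−4.33 ± 1.08, edgeR adjusted p = 0.046). The call ended with DESeq2 (adjusted p = 0.18) and when either Fgfr3-derived library was left out (0.105 for replicate 2, 0.065 for replicate 3). With Hes1-derived replicate 1 left out no Hes1-derived read remained, and the fitted −10.29 is then no measure of size.

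Trpv2 and Trpm7, the TRP members with the highest mean CPM, did not pass; per exon length Trpc6 (7.41 RPKM) lay between Trpv2 (11.2 RPKM) and Trpm7 (4.40 RPKM). Trpv2, a calcium-permeable channel prominent in leukocytes, stood at 59.7 and 71.6 CPM against 26.1 and 43.7 CPM (0.91 ± 0.29, edgeR adjusted p = 0.083), beside a pan-leukocyte sum of 6781 and 7920 CPM against 1932 and 4175 CPM. DESeq2 called it (0.93, adjusted p = 0.027). The edgeR log2 fold change was 1.38 with Fgfr3-derived replicate 3 left out and 0.61 with replicate 2 of that group left out. Scaled to stroma genes it was 1.37 (edgeR adjusted p = 0.097), and scaled to eGFP 1.75 (0.18). Trpm7, a channel fused to a kinase, carries magnesium and other divalent ions and stood at 41.0 and 48.8 CPM against 65.5 and 43.8 CPM, with overlapping groups (−0.28 ± 0.26, edgeR adjusted p = 0.51). The other tested members, Trpv4, Trpm2, Trpc2, Trpm4, Trpc1, Trpm3 and Trpm5, did not pass either, and Trpc1 had the lowest log2 fold change among them (−1.67). Trpm5 had 12 and 16 reads against 0 and 1. Trpc1, whose product assembles with other TRPC subunits, stood at 2.02 and 1.53 CPM against 7.26 and 4.05 CPM (edgeR adjusted p = 0.073). The reads of Trpc2 share exons with the overlapping annotated genes Xndc1 and Xntrpc and are uncertain.

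**Figure D4:**
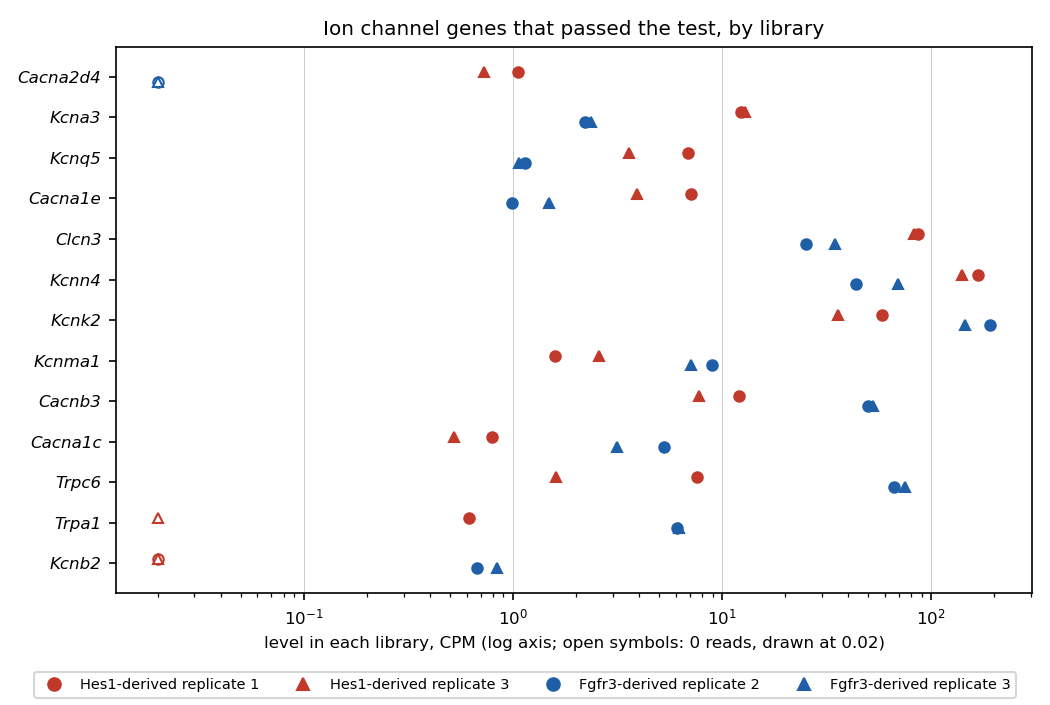
Level (CPM, log axis) of 13 of the 14 members that passed the test in each library, ordered by log2 fold change, with Hes1-derived libraries in red and Fgfr3-derived in blue; open symbols had 0 reads and are drawn at 0.02. In every row the red and blue points are apart, and Trpc6 runs from 1.61 to 74.8 CPM.

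Two-pore-domain potassium channels carry the background potassium current that sets the resting potential. Kcnk2, which encodes a mechanosensitive and lipid-sensitive member, was the most abundant of them and the only 1 of 8 tested members that passed. Kcnk2 (chr1:189207930-189402273, minus strand) stood at 58.1 and 35.7 CPM in Hes1-derived cells against 192 and 145 CPM in Fgfr3-derived cells. Both Fgfr3-derived libraries were above both Hes1-derived ones (log2 fold change −1.84 ± 0.29, a 3.59-fold difference, edgeR adjusted p = 0.019). Scaled to the reticular stroma genes the value was −1.38 (adjusted p = 0.11), and scaled to eGFP it was −1.09 (adjusted p = 0.43). The gene overlaps A430027H14Rik on the opposite strand, and no strand setting is given. Kcnk12, the next in abundance, had 182 and 374 reads against 94 and 234 reads, and the groups overlapped in CPM (0.87 ± 0.52, edgeR adjusted p = 0.31). Of the others, Kcnk5, Kcnk6, Kcnk10 and Kcnk13 had positive and Kcnk1 and Kcnk3 negative log2 fold changes, without passing. Kcnk1 differed within the groups, with 1 and 35 reads against 93 and 354, but the groups did not overlap (−3.54 ± 1.14, edgeR adjusted p = 0.087). In this class DESeq2 called 2 members and limma-voom 1.

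Calcium- or sodium-activated potassium channels gave 1 higher and 1 lower call among 7 tested members, 2 of them (Kcnt1 and Kcnt2) genes of the sodium-activated kind. At an unadjusted p under 0.05, reached by 4307 of all 14330 tested genes, 1 was higher and 4 were lower. Kcnn4 encodes the intermediate-conductance channel of lymphocytes, red cells and other non-excitable cells, which is gated by calcium through calmodulin. Kcnn4 (chr7:24370263-24386690, plus strand) stood at 168 and 141 CPM in Hes1-derived cells against 43.5 and 69.7 CPM in Fgfr3-derived cells. Both Hes1-derived libraries were above both Fgfr3-derived ones (1.45 ± 0.27, a 2.73-fold difference, edgeR adjusted p = 0.024). Erythroid and B lymphocyte marker sums were higher in the same libraries (8364 and 4774 against 1314 and 1932 CPM, and 2982 and 2951 against 736 and 850.03 CPM). Leaving out a library ended the call in 3 cases, with an adjusted p of 0.052 for Hes1-derived replicate 1, 0.0502 for Hes1-derived replicate 3 and 0.053 for Fgfr3-derived replicate 2. Scaled to eGFP it was 0.091.

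Kcnma1, the gene of the large-conductance channel gated by both calcium and voltage, went the other way. Kcnma1 (chr14:23289431-24014491, minus strand) stood at 1.58 and 2.58 CPM against 8.91 and 7.07 CPM, with groups that did not overlap (−1.94 ± 0.45, edgeR adjusted p = 0.037). It overlaps 4930519K11Rik on the opposite strand. The call ended on leaving out Hes1-derived replicate 1 (−1.63, adjusted p = 0.11), Hes1-derived replicate 3 (−2.33, 0.076) or Fgfr3-derived replicate 2 (−1.74, 0.14). It also ended on scaling to stroma genes (−1.35, 0.22) or to eGFP (−0.96, 0.48). The genes of its beta subunits that are tested, Kcnmb4 (8 and 15 reads against 32 and 50) and Kcnmb1 (0 and 4 against 19 and 18), had log2 fold changes of −1.72 and −3.04 that did not pass (edgeR adjusted p = 0.165 and 0.145). Kcnmb4 overlaps the opposite-strand genes Kcnmb4os1 and Kcnmb4os2. Kcnmb1 is best known from smooth muscle, and the mural marker sum was 247 and 140.3 CPM against 529.8 and 591 CPM.

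Voltage-gated potassium channel pores were the largest class, and 18 of its 31 members were tested, of which 2 were higher and 1 lower. Kcna3 encodes the channel that sets the membrane potential of lymphocytes. Kcna3 (chr3:107036169-107038070, plus strand) stood at 12.3 and 12.9 CPM in Hes1-derived cells against 2.21 and 2.37 CPM in Fgfr3-derived cells. The 2 libraries of a group differed little and the groups lay 5.49-fold apart (2.46 ± 0.36, edgeR adjusted p = 0.016). It passed in all 13 alternative fits, including those that leave a group with 1 library, with log2 fold changes between 2.42 and 3.31, and the B lymphocyte marker sum was 2982 and 2951 CPM against 736 and 850.03 CPM.

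Kcnq5 encodes a subunit of the slowly opening M-type channels of neurons and muscle. Kcnq5 (chr1:21398403-21961942, minus strand) had 156 and 89 reads against 29 and 28, or 6.86 and 3.59 CPM against 1.14 and 1.07 CPM (2.23 ± 0.54, edgeR adjusted p = 0.041). Hes1-derived replicate 1 was the highest library. Leaving it out gave an adjusted p of 0.16, leaving out Hes1-derived replicate 3 gave 0.055, leaving out Fgfr3-derived replicate 2 gave 0.12, leaving out Fgfr3-derived replicate 3 gave 0.074, and limma-voom gave 0.053. It overlaps Gm26580 on the opposite strand.

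Kcnb2, the gene of a delayed rectifier, had 0 reads in both Hes1-derived libraries and 17 and 22 reads in the Fgfr3-derived ones. Kcnb2 (chr1:15287254-15723750, plus strand) was thus lower in Hes1-derived libraries (edgeR adjusted p = 0.0396). Its Fgfr3-derived mean lay 5.98-fold above 3 reads per library, taken as the limit that a count of 0 allows. The limit covers counting error of the 0 counts only, and the error of the mean is left out, so the ratio is no strict bound. The call ended in each fit that left out a library (adjusted p between 0.089 and 0.16), without the low-count filter (0.057) and after scaling to eGFP (0.073). Kcnh1, of the ether-a-go-go family, had the highest mean CPM of the class, though per exon length Kcna3 (3.91 RPKM) and Kcns3 (1.61 RPKM) lay above it (1.41 RPKM). It stood at 6.03 and 4.84 CPM against 22.8 and 7.72 CPM. Its Fgfr3-derived libraries stood far apart, and it did not pass (−1.49 ± 0.52, edgeR adjusted p = 0.11), though DESeq2 called it (−1.46, adjusted p = 0.023). The edgeR log2 fold change was −2.02 with Fgfr3-derived replicate 3 left out and −0.49 with replicate 2 of that group left out. Scaled to stroma genes it was −0.90 (edgeR adjusted p = 0.41), and scaled to eGFP −0.58 (0.64). The other 14 tested pore genes did not pass, with log2 fold changes of −2.28 for Kcna4 and 1.40 for Kcnh4, and the 13 below the filter had at most 45 reads in all.

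None of the 8 tested auxiliary genes of these channels passed with edgeR or limma-voom, although the class held Kcne4; 2 had an unadjusted p under 0.05, and DESeq2 called 2. Kcne4 stood at 223 and 131 CPM against 434 and 267 CPM (−0.99 ± 0.34, edgeR adjusted p = 0.10). The groups did not overlap, but each group's libraries were spread by a SD of 64.6 CPM around 177 and of 118 CPM around 351. DESeq2 called it (−0.96, adjusted p = 0.021). The edgeR log2 fold change was −1.25 with Fgfr3-derived replicate 3 left out and −0.58 with replicate 2 of that group left out. Scaled to stroma genes it was −0.51 (edgeR adjusted p = 0.61), and scaled to eGFP −0.22 (0.86). Kcnab2, a cytosolic beta subunit related to aldo-keto reductases, stood at 59.7 and 79.2 CPM against 28.4 and 48.8 CPM (0.85 ± 0.31, edgeR adjusted p = 0.12). DESeq2 called Kcnab2 too (0.87, adjusted p = 0.0499). Its edgeR log2 fold change was 1.34 with Fgfr3-derived replicate 3 left out and 0.53 with replicate 2 of that group left out. Scaled to stroma genes it was 1.32 (edgeR adjusted p = 0.12), and scaled to eGFP 1.71 (0.19). Kcnab1, below the filter, had 83 reads in Fgfr3-derived replicate 3 and 7, 0 and 5 in the others.

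Inward rectifiers, which pass potassium most readily near the resting potential, were sparse: 3 of 10 members were tested and none passed with edgeR, DESeq2 or limma-voom (1 had an unadjusted p under 0.05). Kcnj2 differed more within than between groups, at 1.19 and 3.67 CPM against 1.34 and 4.82 CPM. Kcnj10, best known from glia and kidney, stood at 2.68 and 2.38 CPM against 0.43 and 0.99 CPM (1.82 ± 0.67, edgeR adjusted p = 0.12). The 7 members below the filter each had 44 reads or fewer in all 4 libraries together.

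Voltage-gated calcium channels consist of a pore-forming alpha subunit, an intracellular beta subunit that brings it to the membrane, and an extracellular alpha-2/delta subunit. Of 7 tested pore genes 1 was higher and 1 lower, and of 7 tested auxiliary genes likewise 1 was higher and 1 lower. Cacnb3, the most abundant auxiliary gene, encodes a beta subunit. Cacnb3 (chr15:98630840-98644529, plus strand) stood at 12.0 and 7.74 CPM in Hes1-derived cells against 49.6 and 52.5 CPM in Fgfr3-derived cells. The groups lay 5.17-fold apart, more than the spread within either (−2.37 ± 0.29, edgeR adjusted p = 0.015). Scaled to eGFP it was −1.64 (adjusted p = 0.21).

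Cacna1c, the gene of the L-type pore of heart and smooth muscle that osteoblasts also use, was lower in Hes1-derived cells as well. Cacna1c (chr6:118587240-119196418, minus strand) had 18 and 13 reads against 133 and 82, or 0.79 and 0.52 CPM against 5.24 and 3.13 CPM (−2.67 ± 0.59, edgeR adjusted p = 0.033). Leaving out Hes1-derived replicate 3 gave an adjusted p of 0.13 and leaving out Fgfr3-derived replicate 2 gave 0.17. Scaling to stroma genes gave 0.090 and scaling to eGFP 0.31. Osteoblast marker sums were 6050.4 and 5839 CPM against 30125 and 35677 CPM in the same libraries, and mural marker sums 247 and 140.3 CPM against 529.8 and 591 CPM. Which of these cells carry Cacna1c was not tested. The master osteoblast regulator Sp7 stood at 36.9 and 29.7 CPM against 176 and 138 CPM.

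Cacna1e, the gene of an R-type pore known from neurons, was higher in Hes1-derived libraries. Cacna1e (chr1:154390731-154884501, minus strand) had 161 and 97 reads against 25 and 39, or 7.08 and 3.91 CPM against 0.99 and 1.49 CPM (2.14 ± 0.54, edgeR adjusted p = 0.047). The call ended in each fit that left out a library (adjusted p between 0.0507 and 0.17), with limma-voom (0.053) and after scaling to eGFP (0.055). Cacna2d4, an alpha-2/delta gene known from the retina, had 24 and 18 reads in Hes1-derived libraries and 0 in both Fgfr3-derived ones. Cacna2d4 (chr6:119236526-119352407, plus strand) was thus higher in Hes1-derived libraries (edgeR adjusted p = 0.034), and the call ended in each fit that left out a library. Its Hes1-derived mean lay 7.64-fold above 3 reads per library, a ratio that leaves out the error of that mean.

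The most abundant pore gene, Cacna1g of the T-type channels that open at weak depolarization, did not differ beyond the spread of the libraries, at 15.7 and 10.3 CPM against 13.2 and 14.5 CPM (−0.09 ± 0.32, edgeR adjusted p = 0.89). Cacna2d1, the gene of a subunit bound by gabapentin, stood at 10.1 and 8.06 CPM against 27.6 and 13.4 CPM (−1.17 ± 0.40, edgeR adjusted p = 0.099). DESeq2 called it (−1.14, adjusted p = 0.034). The edgeR log2 fold change was −1.56 with Fgfr3-derived replicate 3 left out and −0.54 with replicate 2 of that group left out. Scaled to stroma genes it was −0.62 (edgeR adjusted p = 0.55), and scaled to eGFP −0.30 (0.80). The remaining tested pore genes lay between −1.36 (Cacna1a) and 1.18 (Cacna1d) and the remaining beta and alpha-2/delta genes between −0.86 (Cacna2d3) and 1.03 (Cacnb2).

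Voltage-gated sodium channels, which carry the upstroke of action potentials in nerve and muscle, were near the detection limit, and none of the 5 tested pore and 3 tested auxiliary genes passed with edgeR. At an unadjusted p under 0.05 there were 2 in each class; DESeq2 called 1 in each, and limma-voom 1 pore and 0 auxiliary genes. Scn4b, a beta subunit gene, had 21 and 41 reads against 8 and 2 (edgeR adjusted p = 0.105). It passed when scaled to stroma genes (3.37, edgeR adjusted p = 0.041) but not when scaled to eGFP (3.75, 0.069). Scn4a, the skeletal muscle pore, had 78 and 103 reads against 1 and 32 (2.57 ± 1.08, edgeR adjusted p = 0.16). DESeq2 called it (2.60, adjusted p = 0.041), as did edgeR when scaled to stroma genes (2.92, 0.011) or eGFP (3.30, 0.038). The edgeR log2 fold change was 1.65 with Fgfr3-derived replicate 2 left out. With replicate 3 of that group left out it was 6.46, where 1 Fgfr3-derived read remained. Scn7a, an atypical sodium-sensing member, had 23 and 40 reads against 8 and 26. Scn1a had 0 reads in both Hes1-derived libraries and 12 and 11 in the Fgfr3-derived ones, without passing (edgeR adjusted p = 0.065). Its Fgfr3-derived mean lay 3.53-fold above 3 reads per library, a ratio that leaves out the error of that mean.

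Among 7 tested CLC genes, Clcn3 was higher in Hes1-derived cells. Clcn3 encodes a chloride-proton exchanger of endosomes and synaptic vesicles. Clcn3 (chr8:60910389-60983300, minus strand) stood at 86.6 and 83.0 CPM in Hes1-derived cells against 25.2 and 34.8 CPM in Fgfr3-derived cells. The 2 Hes1-derived libraries agreed closely and lay 2.83-fold above the others (1.50 ± 0.24, edgeR adjusted p = 0.019), and after scaling to eGFP the adjusted p was 0.070 (2.31). The other abundant members did not pass. Clcn4-2, the mouse Clcn4 gene of a further endosomal exchanger, stood at 126 and 131 CPM against 188 and 143 CPM (−0.37 ± 0.22, edgeR adjusted p = 0.31). It overlaps Gm45631 on the opposite strand. Clcn7, whose product acts together with Ostm1 in lysosomes and at the resorption lacuna of osteoclasts, stood at 43.9 and 44.4 CPM against 55.1 and 66.5 CPM (−0.46 ± 0.21, edgeR adjusted p = 0.20). Ostm1 stood at 86.2 and 93.6 CPM against 98.4 and 98.2 CPM.

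The 2 members that encode no channel subunit did not pass with edgeR, DESeq2 or limma-voom, and neither had an unadjusted p under 0.05. Trpc4ap stood at 318 and 329 CPM against 331 and 309 CPM (0.02 ± 0.21, edgeR adjusted p = 0.97). Kcnq1ot1 varied within each group, at 52.5 and 76.7 CPM against 87.9 and 42.8 CPM (−0.02 ± 0.36, edgeR adjusted p = 0.98), and Kcnq1, whose exons it overlaps on the opposite strand, had 0, 25, 0 and 7 reads.

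**Figure D5:**
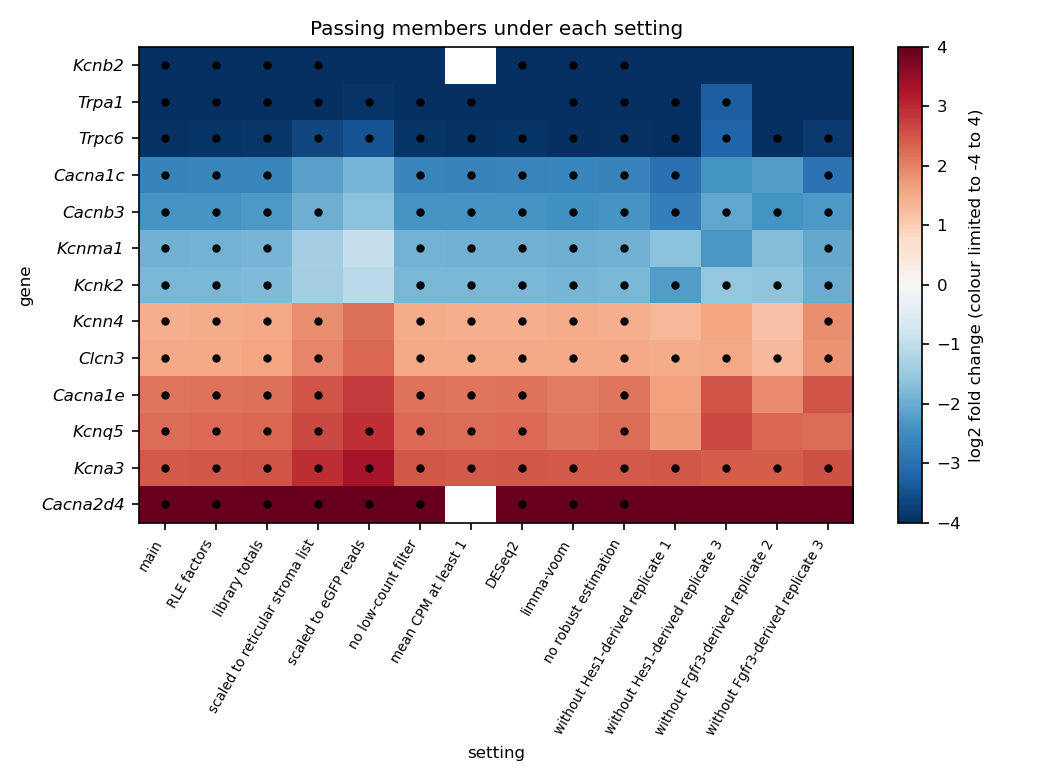
Log2 fold change (colour, limited to −4 to 4) of 13 of the 14 members that passed, under the main setting and 13 alternatives; a black dot marks an adjusted p under 0.05, and white cells were not tested under that filter. No row changes colour between red and blue, and Trpc6 and Kcna3 carry a dot in every column.

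Other ion transport genes that the symbols do not take were read from a list of 122 genes chosen by role, of which 93 had a row and 66 were tested. Of these, 4 were higher and 6 lower (15.2% called, against 11.8% of all tested genes), and their median log2 fold change was −0.16. The share lies close to the background, so no enrichment is read from it. Abcc9, the sulfonylurea receptor subunit of ATP-sensitive potassium channels and a gene of mural cells, stood at 37.0 and 28.9 CPM against 179 and 121 CPM (−2.19 ± 0.27, edgeR adjusted p = 0.015). Pkd2, which encodes the cation channel polycystin-2, stood at 79.8 and 44.8 CPM against 161 and 141 CPM (−1.28 ± 0.30, edgeR adjusted p = 0.038). The anoctamins Ano1, a calcium-activated chloride channel, and Ano8 were lower too, at −1.61 and −1.33 (edgeR adjusted p = 0.0365 and 0.0297). Slc8a3, a sodium-calcium exchanger gene, was lower at −1.93 (edgeR adjusted p = 0.0355).

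The sodium-potassium pump builds the gradients that channels use. Its beta subunit gene Atp1b1 stood at 92.0 and 117 CPM against 23.8 and 34.7 CPM (1.83 ± 0.27, edgeR adjusted p = 0.016), and the beta subunit gene Atp1b3 at 291 and 324 CPM against 326 and 290.3 CPM (edgeR adjusted p = 0.99). Also higher in Hes1-derived libraries were Itpr3, an inositol trisphosphate receptor that releases stored calcium (1.88 ± 0.34, edgeR adjusted p = 0.022), the epithelial sodium channel subunit Scnn1a (1.93, 0.027) and the ATP-gated channel P2rx3 (1.70, 0.0297). Of the store-operated calcium channel genes, Orai2 stood at 111 and 102 CPM against 61.8 and 72.4 CPM (edgeR adjusted p = 0.078) and Orai1 at 90.2 and 91.3 CPM against 45.1 and 72.9 CPM (edgeR adjusted p = 0.17). Abcc9, Ano8, Atp1b1, Itpr3 and P2rx3 each overlap an opposite-strand gene, and their reads cannot be told from its reads without strand.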

How the data were processed

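Gene expression was measured by RNA sequencing in 4 libraries. The deposited counts are whole read numbers per gene symbol, made by the authors; per the submitters' processing notes reads were handled on mouse build mm10 with tools that include HTSeq, TopHat2 2.0.13 and Bowtie2 2.2.1, besides Cufflinks, Cuffdiff, FastQC and DESeq2, with no order or role given. Per the labels' protocols, RNA was processed with the Nextera XT kit; they name a sort for tdTomato and a single-cell loading, while the table holds 1 column of counts per library, treated as bulk here. The annotation and strand setting are not given in the sources used here.

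Members were taken by symbol, and their channel classes by symbol pattern. Members and lists were chosen with earlier results of these data known. Hes1-derived and Fgfr3-derived libraries were compared over all genes in edgeR 4.0.16 under R 4.3.3 (quasi-likelihood, robust, TMM, filterByExpr with a minimum count of 10), with Benjamini-Hochberg adjustment. Each standard error was derived as |log2 fold change| over √F. RPKM was computed from the exon union of each gene. The biological coefficient of variation was 27.8%. Genes named are the members that passed and the 2 with the highest mean CPM per class, and those partner genes that passed. Members named beyond that (Trpc1, Trpc2, Trpm5, Kcnk1, Kcnmb1, Kcnmb4, Kcnab1, Kcnq1, Trpm2, Kcnt1, Kcnt2, Kcns3, Scn1a, Clcn7 and the ends of ranges) were chosen after their values were seen. The members Trpv4, Trpm3, Trpm4, Kcnk3, Kcnk5, Kcnk6, Kcnk10 and Kcnk13 were also named outside this rule. So were Orai1, Orai2, Atp1b3 and Ostm1, partner genes not described as passing, and the markers Cxcl12 and Sp7. Of the members, 130 matched a GENCODE M21 gene (GRCm38) by symbol and 2 by an older symbol. Alternatives were RLE factors, library totals, scaling to 28 stroma genes or to eGFP, both other filters, DESeq2 1.42.0, limma-voom (limma 3.58.1), no robust estimation, an adjusted p under 0.10 and leaving out each library. In simulated counts of this comparison over 14330 genes, calls by edgeR included 17 of the 100 genes set to differ 2-fold, 83 of the 100 set to differ 4-fold and 9 genes without a set difference. Some genes are not reported here and are left out of the figures; counts over classes and lists include them.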

Additional observations from a re-analysis of the deposited data

How the results depend on the processing

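No paired analysis was possible because the groups share a single replicate number. The 6 higher and 8 lower channel genes were the same in number with RLE factors, library totals and no robust estimation. They became 11 and 14 with DESeq2, 11 higher when scaled to stroma genes, 2 lower when scaled to eGFP, and 15 lower at an adjusted p under 0.10. Leaving out a library gave 2 to 7 higher and 4 to 9 lower members. Over all genes, 751 higher and 940 lower became 1411 and 1552 with DESeq2, 1411 and 1664 at an adjusted p under 0.10, and 324 and 19 when scaled to eGFP; scaling to stroma genes left 178 lower, and leaving out a library gave 183 to 1225 higher and 181 to 998 lower. The median of the tested members, −0.26, was 0.26 when scaled to stroma genes and 0.61 when scaled to eGFP, where the median of all genes moved to 0.48 and 0.83, and −0.44 to 0.0011 when a library was left out. It was −0.18 with library totals and −0.35 with a mean of at least 1 CPM. None of the 14 passing members changed sign under any alternative that tested it. The cause of these changes was not tested. The calls kept least often were Kcnb2 (6 of 12 alternative fits) and Cacna1e (7 of 13). At this depth differences in the 45 members below the filter were not detectable.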
